A study of Populus ussuriensis with 12 samples.

Results

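The sucrose synthase genes SUS1 (Potri.018G063500), SUS2 (Potri.006G136700) and SUS3 (Potri.002G202300) were followed in root tips of the poplar Populus ussuriensis. They were picked by identifier, as 3 of the 34699 rows of an expression table that holds 12 libraries and no gene names. The names SUS1, SUS2 and SUS3 are those of the poplar gene family and could not be checked against an annotation here. The identifiers follow the scheme of the related species Populus trichocarpa and place the genes on its chromosomes 18, 6 and 2. Coordinates are left out because the sources used here name no genome build. No sequence of these genes was used here.

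Root tips of 0.5 cm were compared in 4 groups with 3 libraries each. The first group, called OE PEG here, was a PuC3H35 overexpressor kept for 7 days on agar with 6% PEG6000, polyethylene glycol, an osmotic agent that makes water harder for roots to take up. The second, called OE without PEG, was the overexpressor on the same medium lacking PEG. WT PEG and WT without PEG were wild-type plants on the same media. PuC3H35 belongs to the CCCH zinc finger proteins. All plants were 1 week old at transfer and had been raised in vitro from stem segments on Murashige and Skoog medium with 20 g/L sucrose. The genotype labels of the 6 overexpressor libraries bear names running in sequence from PuC3H35-OE line to PuC3H40-OE line, and the libraries were taken as one genotype, as the title of the series has it. The sources used here do not name the promoter that drives the transgene, and the transcript of the transgene was not looked up, because no identifier is tied to it. The labels do not state whether libraries of a group came from different plants or flasks, so the p-values cover only the spread between libraries, which may be technical.

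Sucrose synthase cleaves sucrose with UDP into UDP-glucose and fructose, a reaction that can also run backwards. UDP-glucose is the substrate of cellulose and callose synthesis, and fructose enters glycolysis after phosphorylation, so the enzyme stands where imported sucrose is divided between cell wall, storage and respiration. Its activity is high in tissues that import sugar, such as growing root tips, young fruit and developing wood, and it is often taken as a measure of sink strength. Poplar has a family of these genes. SUS1 and SUS2 are a pair of close relatives in duplicated segments of the genome, and both are known for strong expression in developing wood.

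Values are FPKM, read numbers scaled by gene length and library depth, so levels of the 3 genes can be set side by side. Whole reads worked out from the steps between FPKM values gave 27122673 to 37101915 reads per library. The 3 genes had recovered lengths of 3481 bp for SUS1, 3911 bp for SUS2 and 4082 bp for SUS3, all above the median of 1825 bp of tested genes. Each gene held 15087 to 68720 reads in a library. Counting error on such numbers is 0.381% at the least and 1.15% at the most, the upper value being for reads counted as both mates of a pair. The handling of reads that match several genes is not stated in the sources used here, so reads shared by SUS1 and SUS2 could have been split or dropped. FPKM sums were 661656 to 665551 in OE PEG libraries and 610202 to 623973 in the other 9.

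SUS1 had 170, 170 and 169 FPKM in the OE PEG libraries, 545, 554 and 541 FPKM in OE without PEG, 204, 216 and 217 FPKM in WT PEG, and 452, 442 and 444 FPKM in WT without PEG. The 4 groups did not overlap, with both PEG groups far below both groups without PEG. SUS2 had 300, 309 and 300 FPKM in OE PEG, 488, 496 and 482 FPKM in OE without PEG, 331, 353 and 355 FPKM in WT PEG, and 359, 345 and 351 FPKM in WT without PEG. Here OE without PEG stood above the rest and the WT groups overlapped. SUS3 had 137, 132 and 130 FPKM in OE PEG, 324, 328 and 322 FPKM in OE without PEG, 134, 135 and 131 FPKM in WT PEG, and 203, 209 and 206 FPKM in WT without PEG. The PEG groups of the 2 genotypes overlapped for SUS3, and the groups without PEG were apart from them and from each other.

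**Figure D1:**
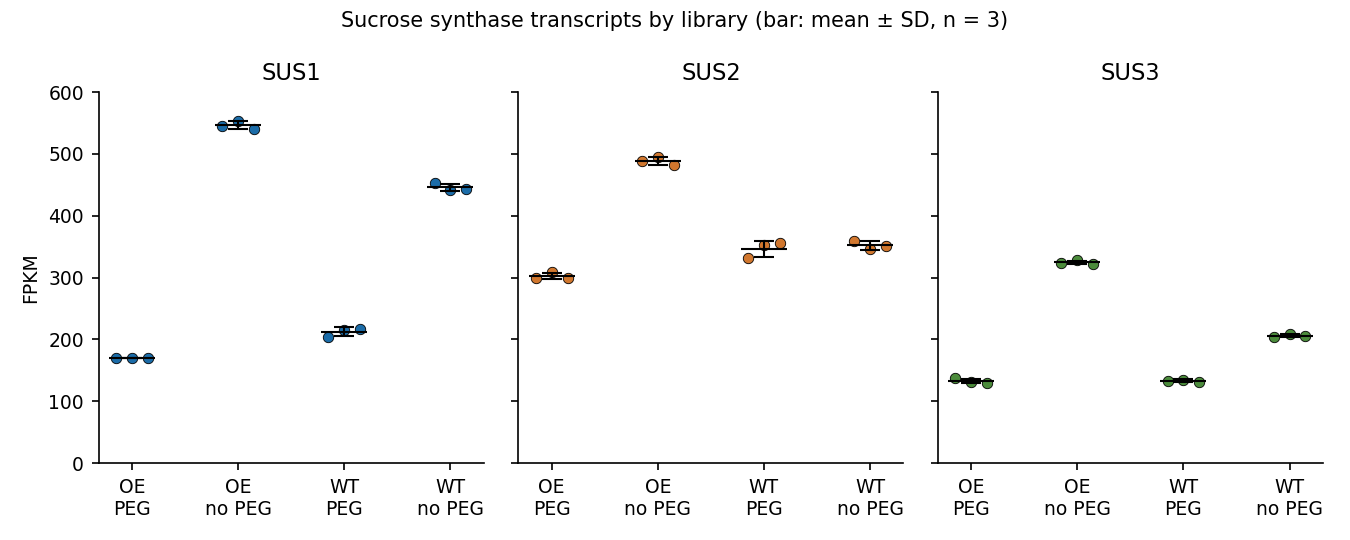
FPKM of SUS1, SUS2 and SUS3 (y axis, linear from 0) in each of the 12 libraries, grouped along the x axis by genotype and medium. Points are libraries and bars the group mean ± SD (n = 3). OE without PEG is highest for every gene, at means of 547, 489 and 325 FPKM.

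All 3 genes were strongly expressed. Ranked by FPKM within a library, their places lay between 68 and 959 of 34699 genes. SUS1 ranked 68 to 76 in OE without PEG and 145 to 148 in WT without PEG, but 696 to 709 in OE PEG and 429 to 466 in WT PEG. SUS2 kept a place between 86 and 309 in all libraries. SUS3, the least abundant of the 3, ranked 219 to 246 in OE without PEG and 904 to 959 in OE PEG, with 785 to 831 in WT PEG and 496 to 525 in WT without PEG. Coefficients of variation within a group ran from 0.153% to 3.79%.

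The first comparison asked how osmotic stress changed the genes in overexpressor roots. All 3 transcripts fell under PEG. SUS1 averaged 170 ± 0.260 FPKM in OE PEG and 547 ± 6.74 FPKM in OE without PEG (SD, n = 3 here and for all group means), a ratio of 0.310. SUS3 averaged 133 ± 3.78 FPKM in OE PEG and 325 ± 2.89 FPKM in OE without PEG, a ratio of 0.409. SUS2 fell least, to 303 ± 5.24 FPKM in OE PEG, against 489 ± 6.99 FPKM in OE without PEG, a ratio of 0.620.

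On the log2(FPKM + 1) scale the change in OE was -1.68 for SUS1 (SE 0.03, limma adjusted p = 8.1e-15). It was -1.28 for SUS3 (SE 0.03, adjusted p = 7e-14) and -0.69 for SUS2 (SE 0.03, adjusted p = 1.1e-10). A call means an adjusted p under 0.05 over 22640 tested genes. PEG lowered 34.1% of tested genes in OE by this rule, so 3 of 3 lowered genes says little by itself. A fall of at least 2-fold was rarer, at 2.35% of tested genes, and SUS1 and SUS3 had one. On this scale 108 tested genes fell more than SUS1 in OE, 267 fell more than SUS3 and 1326 fell more than SUS2. The added 1 FPKM shrinks changes of weakly expressed genes. With 0.1 added in its place, 861 genes were called 2-fold lower in OE, against 533. The size of the falls moved with the scaling. With the trend of fold change on gene length taken out they were -1.50 for SUS1, -0.46 for SUS2 and -1.04 for SUS3. With quantile normalization they were -1.90, -0.87 and -1.41 in that order. All 3 genes were called lower in both settings. The median log2 fold change of all tested genes was -0.023, beside -1.28 for the 3 genes. In such whole root tips, fewer cells that express a gene and less of its RNA per cell cannot be told apart.

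The same question in wild-type roots gave 2 falling genes and 1 that did not pass the test. SUS1 averaged 212 ± 7.32 FPKM in WT PEG and 446 ± 5.63 FPKM in WT without PEG, a ratio of 0.476. SUS3 averaged 133 ± 2.31 FPKM in WT PEG and 206 ± 2.81 FPKM in WT without PEG, a ratio of 0.646. SUS2 stood at 346 ± 13.1 FPKM in WT PEG and 352 ± 6.82 FPKM in WT without PEG. The SUS2 ranges of 331 to 355 FPKM with PEG and 345 to 359 FPKM without it overlap.

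In WT the log2 fold changes were -1.07 for SUS1 (SE 0.03, limma adjusted p = 3.5e-13) and -0.63 for SUS3 (SE 0.03, adjusted p = 1.7e-10). SUS2 differed by -0.023 (SE 0.03, limma adjusted p = 0.55), with a 95% confidence interval of -0.093 to 0.046. That interval allows a small change in either direction. With quantile normalization SUS2 was called higher in WT PEG, at 0.11 (limma adjusted p = 0.0056), a setting in which the median tested gene moved to -0.11. PEG lowered 34.7% of tested genes in WT, and 1.17% by at least 2-fold. SUS1 was among the latter, with 218 genes falling further, and 1128 fell further than SUS3. With 0.1 added to FPKM in place of 1, 459 genes were called 2-fold lower in WT, against 265. With quantile normalization SUS1 changed by -0.88 and so missed the 2-fold limit.

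**Figure D2:**
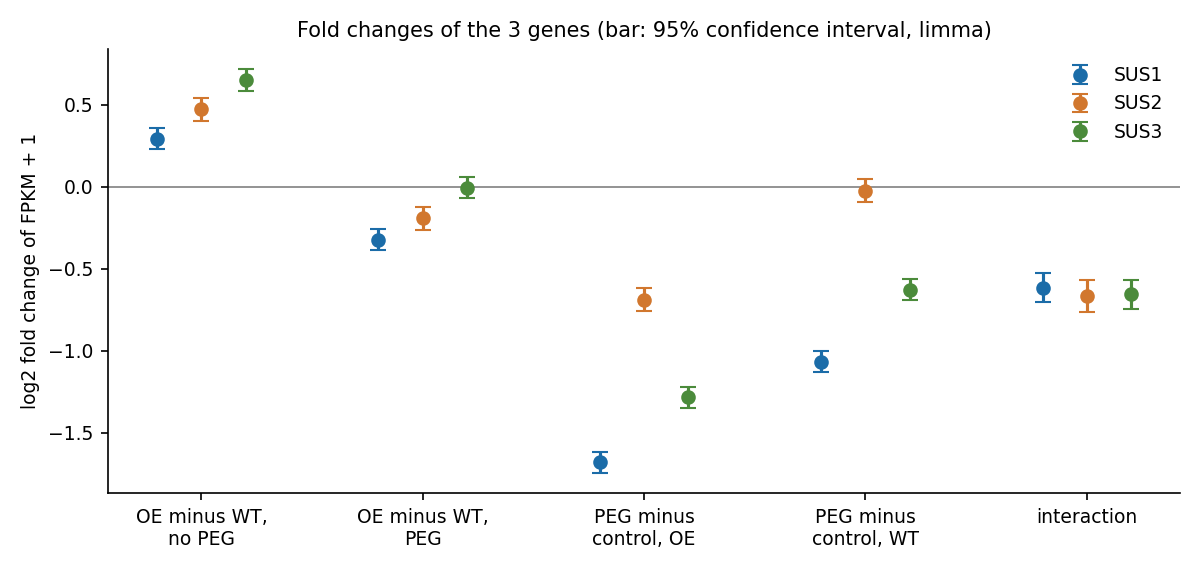
Log2 fold changes of FPKM + 1 (y axis) for SUS1, SUS2 and SUS3 in 5 comparisons (x axis). Points are limma estimates and bars their 95% confidence intervals. In OE minus WT the 3 genes stand in the order SUS1, SUS2, SUS3 from low to high on both media, and in the interaction their intervals overlap.

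The next comparison asked what overexpression did on medium without PEG. All 3 genes were higher in OE. SUS3 differed most in proportion, with 325 ± 2.89 FPKM in OE and 206 ± 2.81 FPKM in WT, a ratio of 1.57. SUS2 had 489 ± 6.99 FPKM in OE and 352 ± 6.82 FPKM in WT, a ratio of 1.39. SUS1 had 547 ± 6.74 FPKM in OE and 446 ± 5.63 FPKM in WT, a ratio of 1.23. In FPKM the gains were closer, at 118 for SUS3, 137 for SUS2 and 101 for SUS1. For each gene the lowest OE library lay above the highest WT library.

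The log2 fold changes were 0.65 for SUS3 (SE 0.03, limma adjusted p = 2.3e-10), 0.47 for SUS2 (SE 0.03, adjusted p = 1.6e-08) and 0.29 for SUS1 (SE 0.03, adjusted p = 1.1e-06). In this comparison 31.7% of tested genes were called higher in OE. A larger positive fold change than that of SUS3 was found for 1909 genes, or 8.43% of those tested, while 5027 genes, or 22.2%, exceeded SUS1. In this fit the confidence intervals of SUS1 (0.23 to 0.36), SUS2 (0.40 to 0.54) and SUS3 (0.59 to 0.72) are separate. Quantile normalization gave 0.51 for SUS1, 0.63 for SUS2 and 0.70 for SUS3 (SE 0.03, 0.03 and 0.04). The order was kept but the values lay closer together, so the separation is stated for the main fit only.

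Under PEG the genotype difference took another form. SUS1 was lower in OE, with 170 ± 0.260 FPKM in OE PEG and 212 ± 7.32 FPKM in WT PEG, a ratio of 0.799. SUS2 was lower too, with 303 ± 5.24 FPKM in OE PEG and 346 ± 13.1 FPKM in WT PEG, a ratio of 0.875. SUS3 had nearly equal means, 133 ± 3.78 FPKM in OE PEG and 133 ± 2.31 FPKM in WT PEG. For SUS1 and SUS2 the highest OE library was below the lowest WT library.

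The log2 fold changes were -0.32 for SUS1 (SE 0.03, limma adjusted p = 2.4e-07) and -0.19 for SUS2 (SE 0.03, adjusted p = 0.0001). For SUS3 the value was -0.0040 (SE 0.03, limma adjusted p = 0.91), with a 95% confidence interval of -0.068 to 0.060. Genes called lower in OE under PEG made up 32.2% of those tested, and 5105 genes had a lower value than SUS1. These differences are small and moved with the scaling. With the trend of fold change on gene length taken out, SUS1 was at -0.16 and still called, SUS2 was at 0.015 (limma adjusted p = 0.74), and SUS3 was called higher in OE at 0.22 (adjusted p = 1.9e-05). Quantile normalization gave -0.51, -0.36 and -0.19, and rescaling to equal FPKM sums gave -0.44, -0.31 and -0.12 for SUS1, SUS2 and SUS3, all of them called lower in OE.

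The interaction subtracts the PEG effect measured in WT from that measured in OE, and it asked whether overexpression altered the response to PEG. It was negative for all 3 genes, so the ratio of PEG to no PEG was lower in OE than in WT for each. SUS1 and SUS3 fell in both genotypes, while SUS2 fell in OE and had no called change in WT in the main fit. Its size was much alike in the 3 genes, although their PEG effects differed widely. The ratio of OE PEG to OE without PEG was 0.652 times the corresponding WT ratio for SUS1, 0.630 times for SUS2 and 0.633 times for SUS3. In FPKM the extra fall in OE was -143 for SUS1, -180 for SUS2 and -119 for SUS3.

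On the log2(FPKM + 1) scale the interaction was -0.61 for SUS1 (SE 0.04, limma adjusted p = 2e-08), -0.66 for SUS2 (SE 0.05, adjusted p = 2e-08) and -0.66 for SUS3 (SE 0.04, adjusted p = 1e-08). The 95% confidence intervals were -0.71 to -0.52, -0.76 to -0.57 and -0.75 to -0.57 in that order, and they overlap. Interactions below 0 were called for 29% of tested genes, and 2398 to 2708 genes had a lower value than these 3. The parts that make up the interaction were not alike. For SUS3 the difference between genotypes was 0.65 without PEG and -0.0040 with it. SUS1 combined a higher level of OE without PEG with a lower level of OE under PEG, in nearly equal log2 steps of 0.29 and -0.32. The steps stayed nearly equal with quantile normalization (0.51 and -0.51). They did not with the length trend taken out (0.28 and -0.16) or with equal FPKM sums (0.31 and -0.44). With the length trend taken out the interactions were -0.44, -0.43 and -0.40 for SUS1, SUS2 and SUS3, and with quantile normalization they were -1.02, -0.99 and -0.89.

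**Figure D3:**
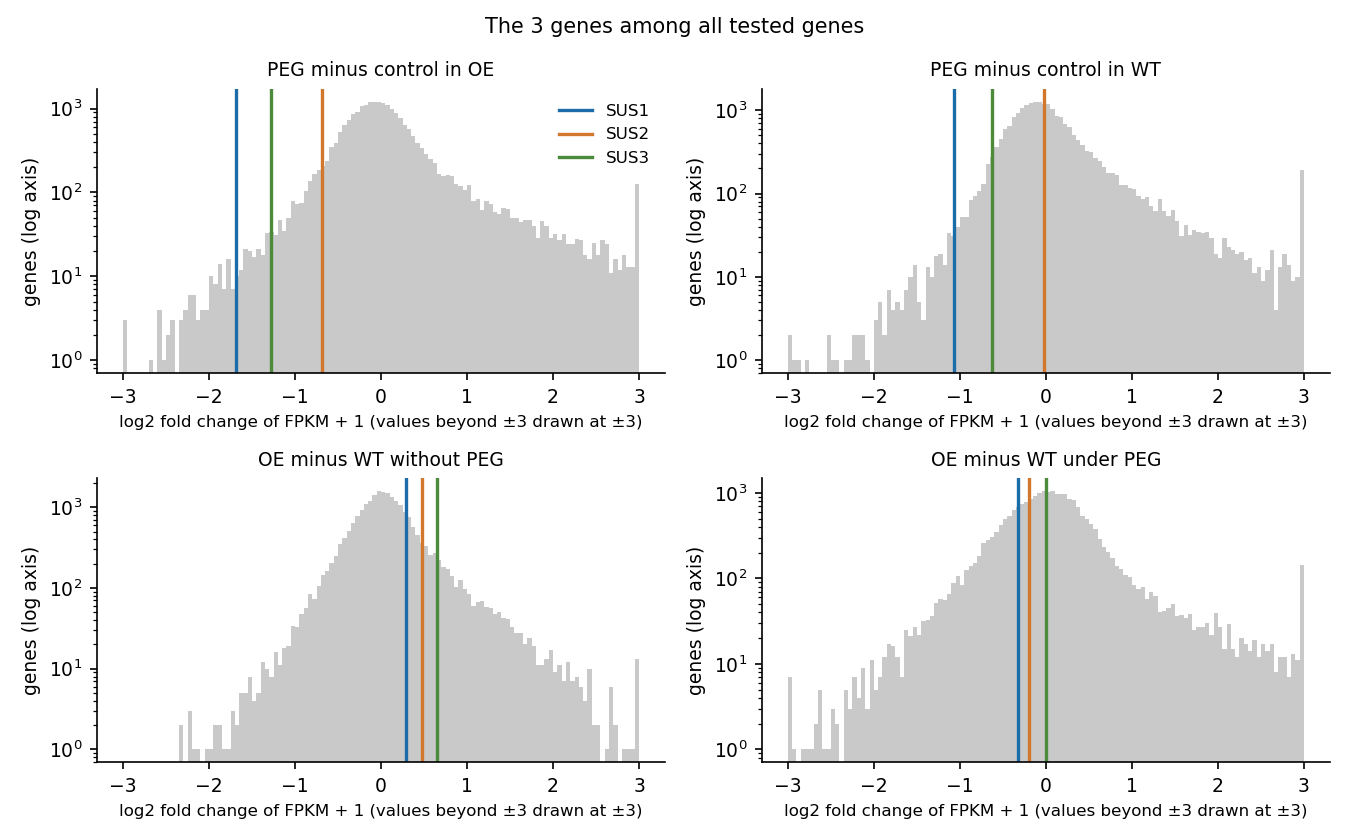
Distribution of log2 fold changes of FPKM + 1 (x axis) over the 22640 tested genes (y axis, number of genes on a log scale) in 4 comparisons, with a vertical line for each of SUS1, SUS2 and SUS3. With PEG in OE the 3 lines lie at -1.68, -0.69 and -1.28, left of the bulk of genes, while in OE minus WT under PEG they lie within it.

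Setting the 4 groups in order of level gave related rankings. For SUS1 the order from high to low was OE without PEG, WT without PEG, WT PEG and OE PEG, with no overlap between neighbours. SUS2 had the same order of means, but its neighbours WT without PEG and WT PEG did not differ beyond their spread. SUS3 had it as well, and there the neighbours WT PEG and OE PEG did not differ beyond theirs. The overexpressor thus had the highest mean of each gene without PEG and the lowest with it, the latter not beyond the spread for SUS3. Once the length trend was removed, OE PEG stayed below WT PEG for SUS1 (-0.16) but not for SUS2 (0.015) or SUS3 (0.22). Across media, OE without PEG exceeded WT PEG by 1.36 for SUS1, 0.50 for SUS2 and 1.28 for SUS3 (limma adjusted p = 6.3e-14, 7.7e-09 and 1.2e-13), where 33.8% of tested genes were called higher. OE PEG differed from WT without PEG by -1.39, -0.22 and -0.63 for the same genes (limma adjusted p = 7.8e-15, 2.8e-05 and 6.7e-11), where 37.1% were called lower. With the length trend taken out, the last comparison gave -0.014 for SUS2 (limma adjusted p = 0.76) and -0.41 for SUS3, still called.

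Together the 3 genes took 0.232% ± 0.00230 of reads in OE PEG, 0.514% ± 0.00623 in OE without PEG, 0.264% ± 0.00745 in WT PEG and 0.377% ± 0.00350 in WT without PEG. Their summed level was 605 ± 5.81 FPKM in OE PEG, 1360 ± 16.6 FPKM in OE without PEG, 692 ± 19.9 FPKM in WT PEG and 1004 ± 9.73 FPKM in WT without PEG. The sum was highest in OE without PEG, and the 4 groups did not overlap. The gap between the OE PEG and WT PEG sums was taken from FPKM as deposited. With the length trend taken out, OE PEG against WT PEG was -0.16 for SUS1, 0.015 for SUS2 and 0.22 for SUS3. Quantile normalization and equal FPKM sums put all 3 genes lower in OE PEG. No sum was computed under these settings.

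PEG also changed which gene led. By FPKM, SUS1 was the most abundant of the 3 in every library without PEG and SUS2 in every library with it. In OE without PEG the lead of SUS1 came from scaling by length. There SUS2 held slightly more reads in each library, such as 61782 against 61393 in library 1. SUS2 made up 50.1% ± 0.590 of the summed FPKM in OE PEG and 35.9% ± 0.0896 in OE without PEG. In WT it made up 50.1% ± 0.498 with PEG and 35.0% ± 0.352 without. SUS1 had 28.0% ± 0.225 in OE PEG and 40.2% ± 0.0265 in OE without PEG, and 30.7% ± 0.211 in WT PEG and 44.4% ± 0.130 in WT without PEG. The share of SUS3 moved little by comparison, from 18.6% in the lowest library to 24.0% in the highest.

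**Figure D4:**
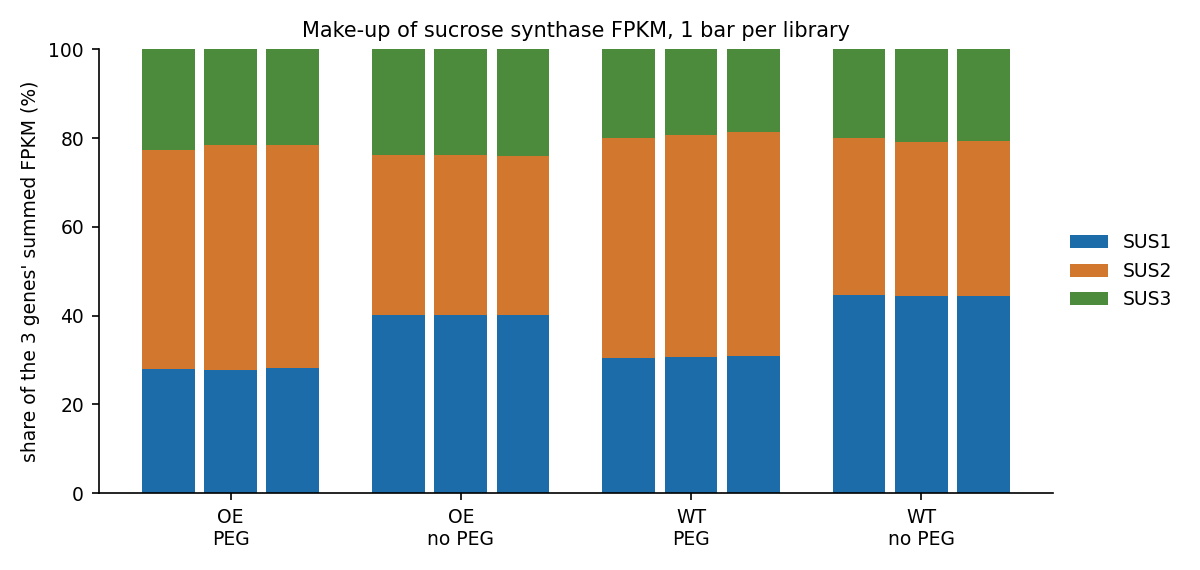
Share of the summed FPKM of the 3 genes held by SUS1, SUS2 and SUS3 (y axis, percent), with 1 stacked bar per library and 3 libraries per group (x axis). SUS2 averages 50.1% in the PEG libraries of both genotypes, and SUS1 holds the largest share in the libraries without PEG.

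The ratio of SUS2 to SUS1 within a library sets the close pair side by side free of library scaling. It was 1.77 to 1.82 in OE PEG and 0.891 to 0.896 in OE without PEG, and 1.63 to 1.64 in WT PEG and 0.782 to 0.794 in WT without PEG. No 2 groups overlapped, and the ratio was higher in OE than in WT on both media. The ratio of SUS3 to SUS1 behaved likewise, at 0.767 to 0.808 in OE PEG, 0.592 to 0.596 in OE without PEG, 0.602 to 0.656 in WT PEG and 0.450 to 0.473 in WT without PEG. The ratio of SUS3 to SUS2 moved the other way with PEG, at 0.426 to 0.457 in OE PEG and 0.661 to 0.669 in OE without PEG, and 0.368 to 0.403 in WT PEG and 0.567 to 0.605 in WT without PEG. So the 3 transcripts did not change as a block: SUS1 lost ground to both others under PEG, and SUS2 gained on both.

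Profiles over the 12 libraries were compared by the root mean square difference of log2(FPKM + 1), each gene centred on its own mean. SUS1 and SUS3 were 0.272 apart, SUS2 and SUS3 0.316, and the close pair SUS1 and SUS2 0.516. Among 22639 other tested genes, SUS3 was number 71 in likeness to SUS1, while SUS2 was number 1427. Ranked by likeness to SUS2, SUS1 was number 18321 and SUS3 number 10015. By likeness to SUS3, SUS1 was number 193 and SUS2 number 364. The measure counts the size of changes as well as their direction, so genes that change little lie near SUS2. A poor rank here thus does not show that the directions of change differed. The tested gene most like SUS1 was Potri.019G056000, at a difference of 0.110. Its level was 21.5 ± 0.942 FPKM in OE PEG, 69.7 ± 3.08 FPKM in OE without PEG, 27.5 ± 2.93 FPKM in WT PEG and 50.6 ± 3.11 FPKM in WT without PEG. The gene most like SUS2 was Potri.001G030750, at 0.0454, with 9.24 ± 0.171 FPKM in OE PEG, 16.0 ± 0.488 FPKM in OE without PEG, 11.0 ± 0.238 FPKM in WT PEG and 11.5 ± 0.470 FPKM in WT without PEG. The gene most like SUS3 was Potri.017G099000, at 0.0880, with 8.77 ± 0.376 FPKM in OE PEG, 22.5 ± 1.56 FPKM in OE without PEG, 7.79 ± 0.152 FPKM in WT PEG and 14.4 ± 0.459 FPKM in WT without PEG. All 3 of these genes were expressed at a lower level than the sucrose synthase they resembled, and the sources used here give them no name.

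**Figure D5:**
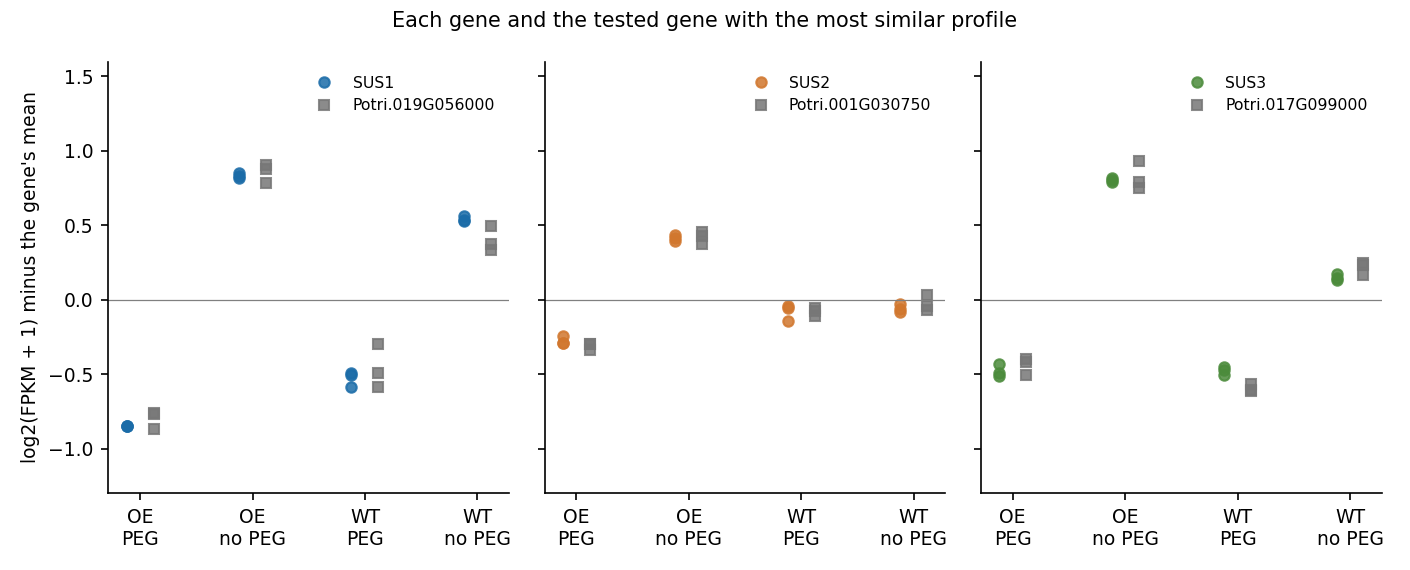
Log2(FPKM + 1) minus the gene's own mean over 12 libraries (y axis) for each sucrose synthase (circles) and the tested gene with the nearest profile (grey squares), by group (x axis), with 1 point per library. The root mean square differences are 0.110 for the SUS1 pair, 0.0454 for the SUS2 pair and 0.0880 for the SUS3 pair.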

How the data were processed

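The deposited table gives FPKM for 34699 identifiers in 12 columns named by sample title, and the authors made these values before deposit. Per the submitters' processing notes, the tools included HTSeq 0.6.0, HISAT2 2.1.0 and Bowtie2 2.2.3, whose roles are not stated. The sources used here name no build, annotation or strand setting.

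Whole reads and lengths were worked out from the steps between values with Python 3.11.15 and numpy 2.4.6. For 22640 genes whose mean FPKM reached 1, 100% of values were returned within 0.0001 FPKM or 1e-06 of the value. Among genes with a mean FPKM under 1, recovered read numbers from 2 to 10 were even in 78.2% of cases. The step was run on simulated data, as was the fit. Simulated read numbers were drawn without this excess of even numbers, and gene changes were set in OE without PEG only. The outcomes are not given here, so no support is drawn from them. Replicates differed beyond counting noise, with a chi-square per degree of freedom of 2.82 to 4.53 when each read is taken as its own count. Reads counted as both mates of a pair would raise the value that counting noise alone gives, so the excess is then smaller.

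Log2(FPKM + 1) of these genes was fitted with limma 3.58.1 in R 4.3.3, with 4 group means, 8 residual degrees of freedom, two-sided moderated statistics and a variance prior that follows the mean. P-values were adjusted by Benjamini-Hochberg over all tested genes in each of 7 comparisons. Pseudocounts of 0.1 and 0.5, other filters and scalings, voom on recovered reads, a replicate block and leaving out each library were alternatives. Genes named beside the 3 were the nearest profile to each. The members, lists and tests were chosen with earlier results of these data known. With no annotation at hand, other genes of sucrose metabolism and markers of cell types were not analysed here.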

Additional observations from a re-analysis of the deposited data

Results flagged for a closer look

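The response to PEG differed between OE and WT for SUS1, SUS2 and SUS3 by the test of the interaction itself. The interaction log2 fold changes were -0.61 for SUS1, -0.66 for SUS2 and -0.66 for SUS3 (limma adjusted p = 2e-08, 2e-08 and 1e-08). Each of the 3 was called below 0 under all 23 alternatives, and 29% of tested genes were called below 0.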

How the results depend on the processing

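Of 21 values for the 3 genes, 17 kept direction and call under every alternative (24 each, 23 for the interaction). The other 4 are small. SUS3 in OE PEG against WT PEG was -0.19 with quantile normalization and -0.12 with equal FPKM sums, both called, 0.22 with the length trend removed, and -0.027 to 0.012 with 1 library left out, its sign turning without OE PEG library 2 or 3 or WT PEG library 2. SUS2 in that comparison was 0.015 with the length trend removed. SUS2 with PEG in WT was 0.11 with quantile normalization, 0.010 with median-of-ratios scaling, 0.014 with voom, and -0.042 to 0.0085 with 1 library left out, its sign turning without WT PEG library 1. SUS2 in OE PEG against WT without PEG was -0.014 with the length trend removed. The cause was not tested. Genes lowered 2-fold by PEG numbered 265 in WT, against 459 with a pseudocount of 0.1 and 444 with voom, and 533 in OE, against 861 with a pseudocount of 0.1.

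Of the genes called in OE against WT without PEG, 57.5% had a positive fold change, or 45.5% with quantile normalization. With equal FPKM sums the share went to 40.5%, against 52.9%, in OE PEG against WT PEG, to 35.3%, against 47.3%, for PEG in OE, and to 35.2%, against 48.9%, for the interaction. In OE PEG against WT without PEG it was 36.8% with quantile normalization, against 49.0%, and in OE without PEG against WT PEG 44.7% with voom, against 56.0%. For PEG in OE the share was 54.5% with voom, and for PEG in WT, at 46.3%, it was 50.9% once the length trend was removed and 37.4% after quantile normalization. The median tested gene moved by over 0.1 in 3 cases: to -0.11, against 0.0059, for the interaction and to -0.074, against 0.028, for OE PEG against WT PEG with equal FPKM sums, and to -0.15, against -0.017, for OE PEG against WT without PEG with quantile normalization. No pairing by replicate number was seen in the values. Deviations of same-numbered libraries correlated at -0.071 to 0.10, and those of other pairs between groups at -0.12 to 0.084. Whether same-numbered libraries shared a harvest or flask cannot be told from this. With the replicate block the interactions kept their values of -0.61, -0.66 and -0.66 (limma adjusted p = 2.1e-07, 1.9e-07 and 8.5e-08), and the block changed no call of SUS1, SUS2 or SUS3, while over all tested genes interactions called numbered 12713, against 12873. The most similar gene of SUS1, SUS2 and SUS3 ranked 17, 5 and 9 by Pearson correlation and 2, 3 and 7 with a pseudocount of 0.1.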

Other observations

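Within each of the 4 groups, SUS1 and SUS2 placed the 3 libraries in the same order of FPKM. Part of this rests on differences within counting error. In OE PEG, SUS2 had 299.92 FPKM in library 1 and 299.86 FPKM in library 3, with single-read counting errors of 0.524% and 0.479%. The source of the shared order was not tested. In WT PEG, library 1 was the lowest for SUS1 (204 FPKM, against 216 and 217) and for SUS2 (331 FPKM, against 353 and 355), while for SUS3 it was in the middle (134 FPKM, against 135 and 131). Their ratio in that group varied only from 1.63 to 1.64. In OE without PEG, library 2 was the highest for SUS1, SUS2 and SUS3. The 3 OE PEG libraries gave SUS1 a coefficient of variation of 0.153%, which is below the counting error of 0.676% to 0.746% for single reads.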
